A study of Mus musculus with 8 samples.

Results

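Segments that carried H3K9me3 and neither H3K9me1 nor H3K9me2 were examined in the chromatin immunoprecipitation sequencing (ChIP-seq) maps of wild-type mouse embryonic fibroblasts (MEFs). The 3 marks are the addition of 1, 2 or 3 methyl groups to lysine 9 of histone H3. On chromosomes 5, 8, 9, 10, 11, 14, 15, 17 and 19, every base was assigned the set of marks whose deposited regions covered it, and runs of at least 1500 bp with H3K9me3 alone were kept. This gave 15435 segments, out of 90626 runs of at least 1500 bp with any set of marks on these chromosomes. The segments were chosen by the region calls themselves, so their marks, widths and neighbours are given as a description with no test.

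The 8 samples were wild type by genotype and formed 4 groups of 2 replicates, namely input chromatin and ChIP for each mark with its own antibody. The study's methods give as wild type the Eset1cKO (E1c) line, a clone grown from a single sorted cell that carries a conditional Eset1/Setdb1 allele, with deletion induced by tamoxifen only in the mutant derivatives. All groups shared this background. Each mark had 1 list of regions for both replicates, without heights, scores or values per replicate, so the replicate error and the read depth behind a segment are unknown, and the input had no list analysed here. All values below describe 1 map per mark. The lists hold no expression, so the labelled cell type could be looked at only through the marks of 10 fibroblast matrix genes. Of these, 7 carried at least 1 mark in the gene body and 4 carried H3K9me3, which covered 82.8% of Mmp2, 69.2% of Fbln1, 40.9% of Dcn and 19.8% of Lum. Col1a1, Sparc and Timp2 carried none of the 3 marks. Mmp2 alone of the 10 (10%, against 5.61% of all protein-coding genes) had an H3K9me3-only segment within 1 kb of an annotated start. H3K9me1 and H3K9me2 also reached that window of Mmp2.

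As background, H3K9me3 is laid down by Suv39h and Setdb1 (Eset1) enzymes and is read by HP1 proteins. It is known from pericentric repeats, from endogenous retroviruses and other transposable elements, from the ends of zinc finger genes and from the DNA-methylated allele of imprinted loci. H3K9me2 depends largely on G9a and Glp and often forms broad domains, while H3K9me1 is also found over transcribed gene bodies.

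Stretches of 31 bases (31-mers, counted on either strand) that recurred across many segments were read from the GRCm38 sequence, because they show the letters the segments share. They were picked one at a time by the number of segments that lacked those picked before. Alternating AC letters came first, and the first that was not a run of a unit of at most 6 bases, called widespread here, was held by 1173 segments. A further 4 are shown because at least 50% of their copies on the 9 chromosomes lay in H3K9me3-only sequence.
widespread 31-mer: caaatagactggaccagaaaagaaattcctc
concentrated 31-mer 1: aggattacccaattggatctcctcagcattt
concentrated 31-mer 2: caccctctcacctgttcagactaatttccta
concentrated 31-mer 3: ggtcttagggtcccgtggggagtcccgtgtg
concentrated 31-mer 4: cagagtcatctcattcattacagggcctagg

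Copies of concentrated 31-mers 1 and 4 are printed within 300 bases of GRCm38 on the + strand, with the 31-mer in capitals. Each is the first copy by position whose 300 bases lay within 1 segment and outside annotated exons. Both copies were intergenic, at chr5:4517490-4517789 and chr5:6186837-6187136.
copy of 31-mer 1: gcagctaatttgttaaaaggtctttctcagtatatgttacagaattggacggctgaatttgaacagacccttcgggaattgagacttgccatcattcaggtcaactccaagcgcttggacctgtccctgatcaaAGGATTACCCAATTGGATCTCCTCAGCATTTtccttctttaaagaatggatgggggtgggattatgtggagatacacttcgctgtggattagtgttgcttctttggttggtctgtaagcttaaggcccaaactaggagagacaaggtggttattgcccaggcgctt
copy of 31-mer 4: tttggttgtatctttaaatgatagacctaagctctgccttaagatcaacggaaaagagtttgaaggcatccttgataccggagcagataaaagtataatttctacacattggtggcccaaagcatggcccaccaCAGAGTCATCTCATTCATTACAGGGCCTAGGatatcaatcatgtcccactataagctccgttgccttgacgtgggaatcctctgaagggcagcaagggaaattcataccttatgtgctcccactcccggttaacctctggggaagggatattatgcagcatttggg

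Copies of these 31-mers lay mostly under H3K9me3. 31-mer 1 had 951 copies, of which 55.5% were in H3K9me3-only sequence, 86.6% under H3K9me3 in any combination and 11.9% in unmarked sequence. 31-mer 4 had 487 copies, of which 76.6% were in H3K9me3-only sequence, 97.1% under H3K9me3 in any combination and only 13 copies unmarked. It was held by 2.40% of H3K9me3-only segments, by 0.565% of segments with H3K9me2 and H3K9me3 and by 0.0686% of segments with all 3 marks. 31-mers 2 and 3 had more unmarked copies, 30.1% of 1955 and 25.1% of 1382. For comparison, H3K9me3-only sequence of any width made up 8.42% of the 9 chromosomes. The 31-mers were picked for these shares, so no test is given.

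The widespread 31-mer behaved differently from the concentrated ones. It had 4734 copies, of which 26.6% were in H3K9me3-only sequence and 52.9% in unmarked sequence, and it was held by 7.60% of H3K9me3-only segments and 4.73% of unmarked runs of at least 1500 bp. Another, picked later but held by 1268 segments, had 13.9% of its 10398 copies in H3K9me3-only sequence and 62.9% in unmarked sequence. Alternating AC letters were in 22.9% of segments and in 38.9% of unmarked runs, so a 31-mer can be common in the segments and yet lie mostly outside them. Of 17921 31-mers held by at least 150 segments and not made of short tandem units, 6089 had at least 50% of their copies in H3K9me3-only sequence. One or more of these was held by 1413 segments (9.15%). The share was 4.69% in segments with H3K9me2 and H3K9me3, 2.64% in those with all 3 marks and 1.80% in unmarked runs. The 6089 were picked for their copies in H3K9me3-only sequence, so the highest share there follows from the choice and is no result. The share of H3K9me3-only segments holding one ranged from 4.90% on chromosome 19 to 14.8% on chromosome 11. No annotation of repeat families was used, so the elements are not named, and how reads with several possible positions were treated is not given in the sources used here. The part of such reads in these shares was not tested.

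The segments covered 84.7 Mb, or 8.37% of the known bases of the 9 chromosomes and 31.9% of the bases under H3K9me3 there. Most were short. The median width was 3.75 kb, the 25th and 75th percentiles were 2.25 and 6 kb, and the 90th and 99th percentiles were 10.5 and 32.25 kb. All region ends fell on a grid of 750 bp, so widths are multiples of it. Just inside the rule's minimum were 3320 segments of 1500 bp (21.5%), and just outside it 4236 runs of 750 bp that covered 3.18 Mb. The 791 segments of at least 15 kb held 27.3% of the covered bases, and 76 segments reached 50 kb. The remaining H3K9me3 bases on these chromosomes carried all 3 marks (35.9%), H3K9me2 without H3K9me1 (28.2%) or H3K9me1 without H3K9me2 (2.72%), with the rest in runs below the minimum width.

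**Figure D1:**
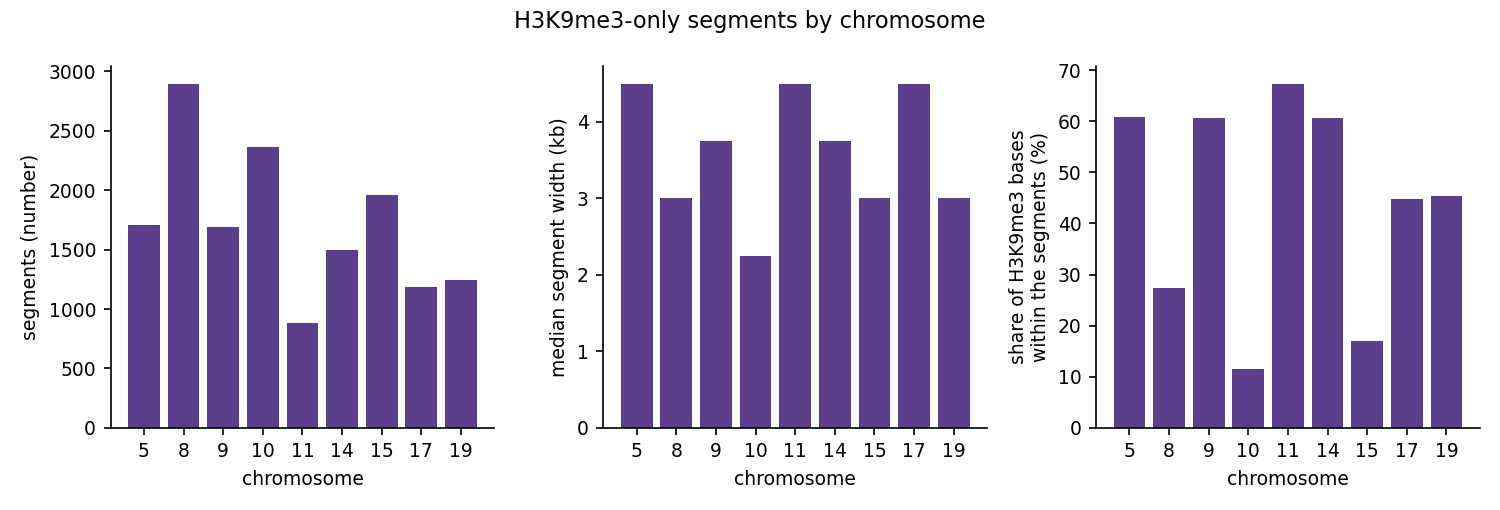
Bars give, for each of the 9 chromosomes, the number of H3K9me3-only segments, their median width in kb and the share of all H3K9me3 bases that lay within them in percent. Chromosomes 10 and 15 had many narrow segments that held 11.5% and 17.03% of their H3K9me3 bases, against 60.6% to 67.4% on chromosomes 5, 9, 11 and 14.

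The chromosomes differed in how H3K9me3-only sequence was arranged. Chromosome 8 had 2897 segments and chromosome 11 had 880, or 23.1 and 7.41 segments per Mb. The covered share of a chromosome varied less, from 5.98% on chromosome 11 to 10.6% on chromosome 19. On chromosome 10, H3K9me3 in any combination covered 58.8% of known bases, the largest share of the 9, but the segments had a median width of only 2.25 kb and the widest measured 26.25 kb. On chromosome 11, H3K9me3 covered 8.88%, and 67.4% of it lay in H3K9me3-only segments. Chromosome 5 held the widest segment, of 299.25 kb. The share of a chromosome under any of the 3 marks ranged from 24.1% on chromosome 14 to 81.0% on chromosome 10. Its part in the differences between chromosomes was not tested. In the first 5 Mb of assembled sequence, next to the centromere, H3K9me3-only segments covered between 0.780% (chromosome 14) and 7.89% (chromosome 8), which was below the share of the rest of the same chromosome on all 9.

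What touched a segment fell into 3 main arrangements. Of the 30870 sides, 59.0% met unmarked sequence, 35.1% met H3K9me2 with H3K9me3, 2.61% met H3K9me1 with H3K9me3 and 2.13% met all 3 marks. The 6639 islands (43.0% of segments) had unmarked sequence on both sides and were therefore whole deposited H3K9me3 regions. A further 4744 (30.7%) had H3K9me3 going on at 1 side with another mark and unmarked sequence at the other, and 3693 (23.9%) lay inside a larger H3K9me3 region, whose median width was 41.25 kb. The remaining 359 had other neighbours. H3K9me2 touched 54.0% of segments, whereas H3K9me1 touched 8.88% and was a median of 86.25 kb away. The median gap to the next H3K9me3-only segment was 11.25 kb.

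**Figure D2:**
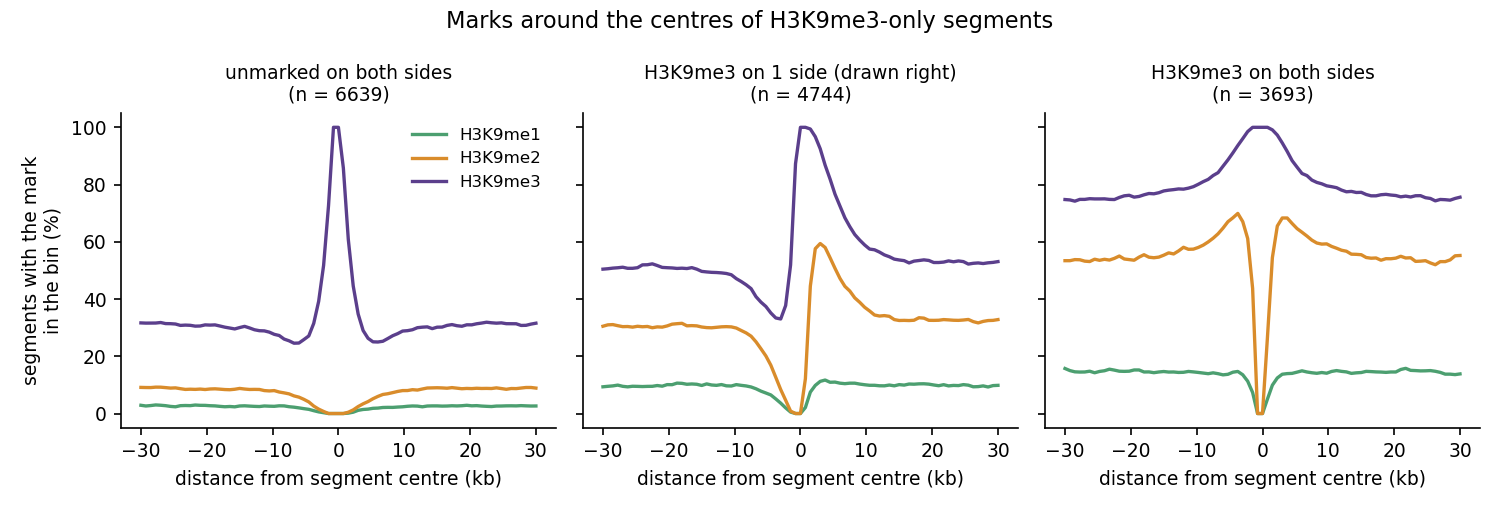
Lines give the percentage of segments whose 750 bp bin at each distance (kb) from the segment centre was covered by H3K9me1, H3K9me2 or H3K9me3, for the 6639 islands, the 4744 segments with H3K9me3 on 1 side (turned so that this side is on the right) and the 3693 segments inside larger H3K9me3 regions. H3K9me2 drops to 0 at the centre, as the rule requires, and reaches 69.9% at 3.75 kb from the centre where the segment lies inside a larger region, while H3K9me1 stays at or below 15.8% throughout.

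The 3 arrangements differed in width and sequence. Islands had a median width of 4.5 kb, against 3 kb for the other 2 main kinds, and were wider than segments inside larger regions on all 9 chromosomes. Soft-masked bases, which the reference marks as repeats, made up 43.7% of islands, 39.6% of segments with H3K9me3 on 1 side and 36.4% of those inside larger regions. Islands had the highest share of the 3 on all 9 chromosomes. One of the 6089 concentrated 31-mers was held by 11.9%, 8.58% and 5.09% of them, in the same order. Islands were also wider, and the part of width in these shares was not tested. Gene bodies took up 38.0% of island bases and 45.2% of the bases of segments inside larger regions. Going inwards from the edges of islands of at least 6 kb, the soft-masked share rose from 36.0% at 4.5 kb outside to 48.1% at 3.75 kb inside, and the share of positions in a repeated 31-mer rose from 9.47% to 17.9%. A 31-mer was called repeated when it occurred at least 10 times on its own chromosome.

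Wide and narrow segments also differed. Segments of 3 to 5.25 kb had the highest repeat shares of the width classes, with 46.3% of bases soft-masked and 16.3% of positions in a repeated 31-mer. Segments of 1.5 to 2.25 kb (45.4% and 15.6%) and of 6 to 14.25 kb (44.2% and 14.8%) were close to them. Segments of at least 15 kb were soft-masked over 30.1%, with 6.44% of positions in a repeated 31-mer. Bases within genes made up 51.3% of these widest segments, against 34.9% to 38.1% in the narrower classes. Single segments spread widely. The soft-masked share was at least 80% in 2795 segments (18.1%) and at most 10% in 629, with a median of 35.1%, and 2274 segments (14.7%) held no repeated 31-mer.

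Sequence under the segments was compared with that of the other kinds of sequence on the same chromosome, which the rule did not fix. The comparison was made with segments of H3K9me2 and H3K9me3 (14865), segments with all 3 marks (13119) and unmarked sequence, by an exact two-sided sign-flip permutation test over the 9 chromosomes. The smallest p this test can give is 0.00391, and p was adjusted by Benjamini and Hochberg over 18 tests. Chromosomes are parts of 1 map and not replicates of the experiment, so p measures how evenly a difference holds across them.

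Repeats set H3K9me3-only segments apart. The soft-masked share averaged 41.1% over the 9 chromosomes, which was higher than in H3K9me2 and H3K9me3 segments by 7.46 ± 3.86 percentage points (SD of the difference, n = 9 chromosomes, exact permutation test, adjusted p = 0.00781), than in segments with all 3 marks by 11.9 ± 5.55 and than in unmarked sequence by 6.93 ± 4.96 (both with adjusted p = 0.00781). Each of these differences was above 0 on 9 of 9 chromosomes. The share of positions in a repeated 31-mer averaged 12.99%, against 8.28%, 5.77% and 7.57% in the same order, and was higher on 9 of 9 chromosomes in each comparison (exact permutation test, adjusted p = 0.00781). By the median over single segments, the excess of repeated 31-mers over unmarked sequence was 0.669 percentage points and no longer passed (exact permutation test, adjusted p = 0.0635).

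**Figure D3:**
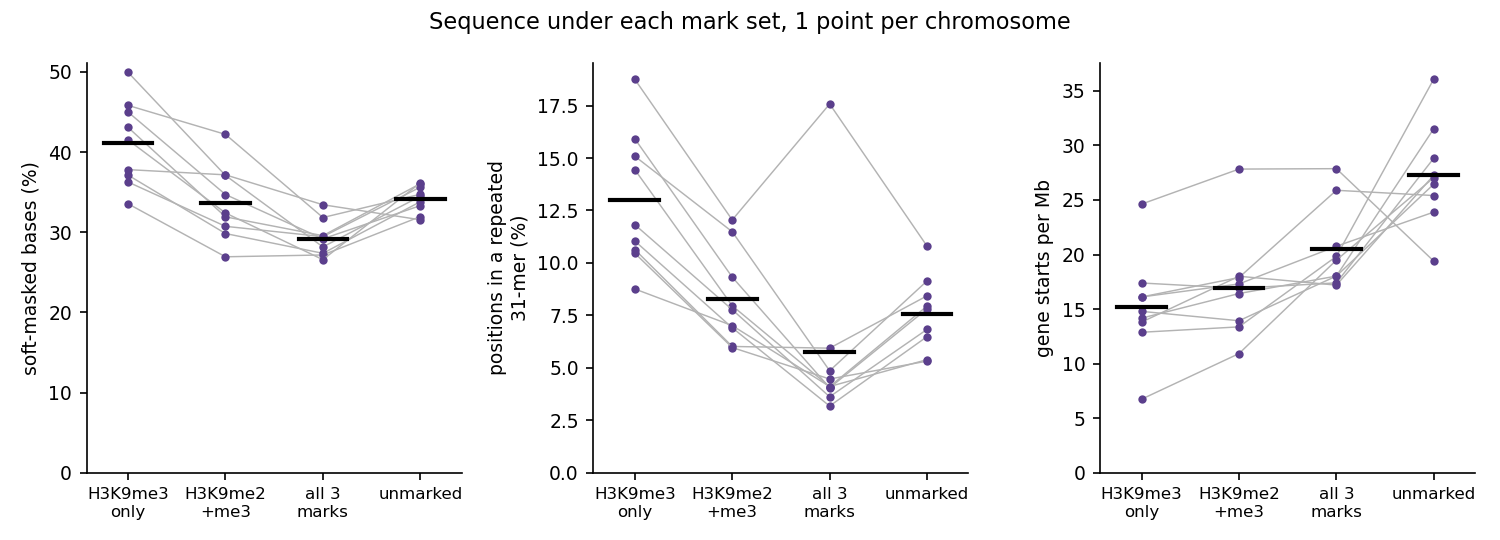
Points give, for each chromosome, the soft-masked bases in percent, the positions in a repeated 31-mer in percent and the gene starts per Mb in H3K9me3-only segments, segments with H3K9me2 and H3K9me3, segments with all 3 marks and unmarked sequence, with grey lines joining a chromosome and black bars at the mean of the 9. Soft-masked bases average 41.1% in H3K9me3-only segments and 33.7%, 29.2% and 34.2% in the other kinds, while gene starts average 15.2 per Mb against 27.3 in unmarked sequence.

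Base composition differed less. GC content averaged 42.1% and was lower than in H3K9me2 and H3K9me3 segments (43.5%) and in segments with all 3 marks (44.6%) on 9 of 9 chromosomes (exact permutation test, adjusted p = 0.00781 for both). It was higher than in unmarked sequence (40.6%) on 8 of 9 chromosomes (exact permutation test, adjusted p = 0.0234), but the sign of this last difference turned when the median over segments was used. CpG dinucleotides were at 9.04 per kb. Their difference from the other kinds was -0.0970 ± 0.558, -0.764 ± 1.26 and 0.751 ± 1.71 per kb (SD, n = 9 chromosomes) and did not pass the exact permutation test (adjusted p = 0.590, 0.123 and 0.227). The letters TGCCGC, the hexamer known to be bound by Zfp57 (either strand), occurred 0.0800 times per kb in the segments, 0.0693 in H3K9me2 and H3K9me3 segments, 0.0774 in segments with all 3 marks and 0.0590 in unmarked sequence. They were more frequent in H3K9me3-only segments on 2, 4 and 6 of 9 chromosomes, in the same order. The palindrome CACGTG occurred 0.102, 0.103, 0.127 and 0.0947 times per kb, and was more frequent in H3K9me3-only segments on 1, 1 and 7 of 9 chromosomes.

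The segments held few gene starts. They had 15.2 gene starts per Mb on average, against 20.5 in segments with all 3 marks (lower on 9 of 9 chromosomes, exact permutation test, adjusted p = 0.00781) and 27.3 in unmarked sequence (lower on 8 of 9, adjusted p = 0.0141). The difference from H3K9me2 and H3K9me3 segments was smaller (-1.77 ± 1.87 per Mb, SD, n = 9 chromosomes, exact permutation test, adjusted p = 0.0379). Pooled over all bases it had the other sign, with 15.4 gene starts per Mb in H3K9me3-only segments and 14.8 in H3K9me2 and H3K9me3 segments. It did not pass without chromosomes 10 and 15, with H3K9me1 and H3K9me2 regions widened by 3000 bp or with only deposited regions of at least 2.25 kb (same exact test, adjusted p = 0.100, 0.131 and 0.0502). The difference from unmarked sequence was -12.1 per Mb, and it fell to -3.74 with regions widened and to -9.40 without chromosomes 10 and 15, where it did not pass either (same exact test, adjusted p = 0.0811 and 0.0511). Bases within genes averaged 40.6%, against 51.5% in segments with all 3 marks (lower on 8 of 9 chromosomes, exact permutation test, adjusted p = 0.0192, and 0.0703 without chromosomes 10 and 15). The difference from H3K9me2 and H3K9me3 segments (-4.02 ± 4.65 percentage points, SD, n = 9 chromosomes, exact permutation test, adjusted p = 0.0452) did not pass under 5 of the 8 alternatives, and that from unmarked sequence (47.0%) did not pass (adjusted p = 0.0563 in the same exact test). Pooled over the 9 chromosomes, 59.3% of segment bases were intergenic, 38.1% intronic and 2.64% exonic, against 53.1%, 42.2% and 4.70% in unmarked sequence. Segments with H3K9me2 and H3K9me3 were nearly the same as H3K9me3-only segments, at 59.2%, 38.1% and 2.61%. Pooled bases within genes were likewise 40.70% in H3K9me3-only segments and 40.75% in H3K9me2 and H3K9me3 segments.

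Coverage by the segments was uneven along the chromosomes. Over 1012 windows of 1 Mb, the median share of H3K9me3-only segments was 2.77%, the 90th percentile was 24.0%, and 72 windows held none. In the fullest window, chr5:127000001-128000000, they covered 93.6%, while H3K9me2 covered 0.300% and H3K9me1 none. It meets the protein-coding genes Tmem132c, Slc15a4, Glt1d1 and Tmem132d, of which Tmem132c and Tmem132d encode single-pass membrane proteins. The next fullest was chr5:132000001-133000000 (91.1%), over Auts2. The widest segment, chr5:128019751-128319000 (299.25 kb), lay wholly within the body of Tmem132d. It was followed by chr5:127275751-127571250 (295.5 kb, Tmem132c) and chr17:48805501-49051500 (246 kb, Lrfn2, a synaptic adhesion gene). The other 7 of the 10 widest measured 150.75 to 216 kb. Of these, chr5:128320501-128536500 met Tmem132d, chr5:131714251-131901000 met Auts2, chr5:127119751-127273500 met Tmem132c, and chr17:67524751-67675500 met Lrrc30. The segments chr5:133017001-133217250 and chr5:132823501-133003500 met no annotated gene, and chr11:114105751-114295500 met 4 genes, none of them protein-coding. Soft-masked shares of the 10 ran from 21.3% to 31.6%, below the 41.0% of all segments pooled.

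The middle of the widest segment is shown to contrast with the repeat copies above. It is intronic to Tmem132d, at chr5:128169226-128169525 (GRCm38, + strand), with CpG in capitals.
middle of the widest segment: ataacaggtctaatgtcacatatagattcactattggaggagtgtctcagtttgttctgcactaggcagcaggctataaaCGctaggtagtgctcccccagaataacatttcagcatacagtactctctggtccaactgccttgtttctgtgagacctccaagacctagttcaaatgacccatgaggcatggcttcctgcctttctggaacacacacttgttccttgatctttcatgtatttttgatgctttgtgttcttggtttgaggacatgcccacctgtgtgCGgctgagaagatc

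At gene bodies, 1140 of 9632 protein-coding genes (11.8%) met a segment anywhere, and 184 had at least 50% of the body under H3K9me3-only segments. By bases covered, which favours long genes, Auts2 came first. This gene, linked to neurodevelopment, had 933 kb in 38 segments, or 84.3% of its body. Tmem132d followed with 643 kb in 4 segments (98.7%), then Asic2, an acid-sensing ion channel (583 kb in 29 segments, 53.5%), and Dpp6, an auxiliary subunit of potassium channels (569 kb in 42 segments, 62.5%). The receptor phosphatase gene Ptprm (541 kb, 78.6%) and the cell adhesion genes Sdk1 (539 kb, 55.4%) and Clstn2 (482 kb, 81.9%) were next. H3K9me1 covered at most 0.873% of the body of any of these 7 genes, whereas H3K9me2 ranged from 0.230% in Tmem132d to 41.2% in Sdk1.

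The other 13 of the 20 genes with the most covered bases held 292 to 459 kb. Among them, Csmd1 (459 kb in 73 segments), the cGMP-dependent kinase gene Prkg1 (397 kb in 66 segments) and Galntl6 (292 kb in 67 segments) carried many separate segments over 27.9%, 33.1% and 25.6% of their bodies. Tmem132c was covered over 99.3% by 2 segments. L3mbtl4 was covered over 75.6%, Fam155a over 67.3%, Cpne4 over 67.0%, Dock2, a guanine nucleotide exchange factor of blood cells, over 65.6%, and Sorcs3, a sorting receptor, over 57.3%. The nuclear receptor gene Rora (44.6%), Grid1, a glutamate receptor of the delta type (38.7%), the cation channel gene Trpm3 (36.2%) and Cacna2d3, a calcium channel subunit (35.7%), were covered in part. H3K9me1 reached 21.04% of Rora, the most among the 20. A promoter met by a segment together with at least 50% of the body was found in 166 protein-coding genes, and the 10 longest of these (Auts2, Asic2, Sdk1, Dpp6, Ptprm, Tmem132d, Sorcs3, Clstn2, Fam155a and Dock2) were all among the 20.

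A promoter, here the window within 1 kb of an annotated start in both directions, was met by a segment in 1846 of 22392 annotated genes (8.24%) and in 540 of 9632 protein-coding genes (5.61%). In 298 of the 540 (55.2%) no other mark set reached the window. Of protein-coding promoters with H3K9me3 in any combination, 27.9% met an H3K9me3-only segment. Gene ends, 1 kb either side, were met in 377 protein-coding genes (3.91%). The 250 bases before the 5' end held a median of 5 CpG in the 540 genes and of 9 in all 9632, and at least 10 CpG in 34.3% and 49.6%. The 540 were met at any annotated start, and only 408 protein-coding genes were met within 1 kb of the 5' end. In 304 genes all 250 bases lay within a segment, with a median of 6 CpG and at least 10 CpG in 39.5%.

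Gene lists were read against these backgrounds as counts, with no test. Alpha and beta defensins, antimicrobial peptides of epithelia and leukocytes, stood highest, with 26 of 51 promoters (51.0%) and 20 of 51 gene ends (39.2%) met. All but Defb43 (chromosome 14) were on chromosome 8, where defensins lie in clusters, and the part of reads shared between similar copies was not tested. Among others, Defb14, Defb4, Defb3, Defb8, Defb7, Defa30 and Defa31 were covered over 100% of their bodies, while Defb46, Defa36 and Defa17 carried H3K9me2 over 100% and met a segment only near the start. H3K9me2 met 27 and H3K9me1 only 2 of the 51 defensin promoters. Olfactory receptors had 43 of 458 promoters met (9.39%), with Olfr974, Olfr761 and Olfr1447 wholly covered. Vomeronasal receptors had 3 of 67 (4.48%, the same at the 5' end, where the background is 4.24% of protein-coding genes). Cytochrome P450 genes had 8 of 58 (13.8%), among them Cyp3a25, covered over 68.8%, but for only 2 of them without another mark in the window. Gene ends were met in 10 of 67 vomeronasal receptors (14.9%), 41 of 458 olfactory receptors (8.95%) and 7 of 58 cytochrome P450 genes (12.1%). The share over all protein-coding genes was 3.91%. None of 79 keratin and 0 of 24 interferon response genes had a promoter or gene end met. H3K9me3 in any combination still reached 23 keratin promoters (29.1%) and 2 interferon response promoters (8.33%), against 20.1% of all protein-coding promoters.

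**Figure D4:**
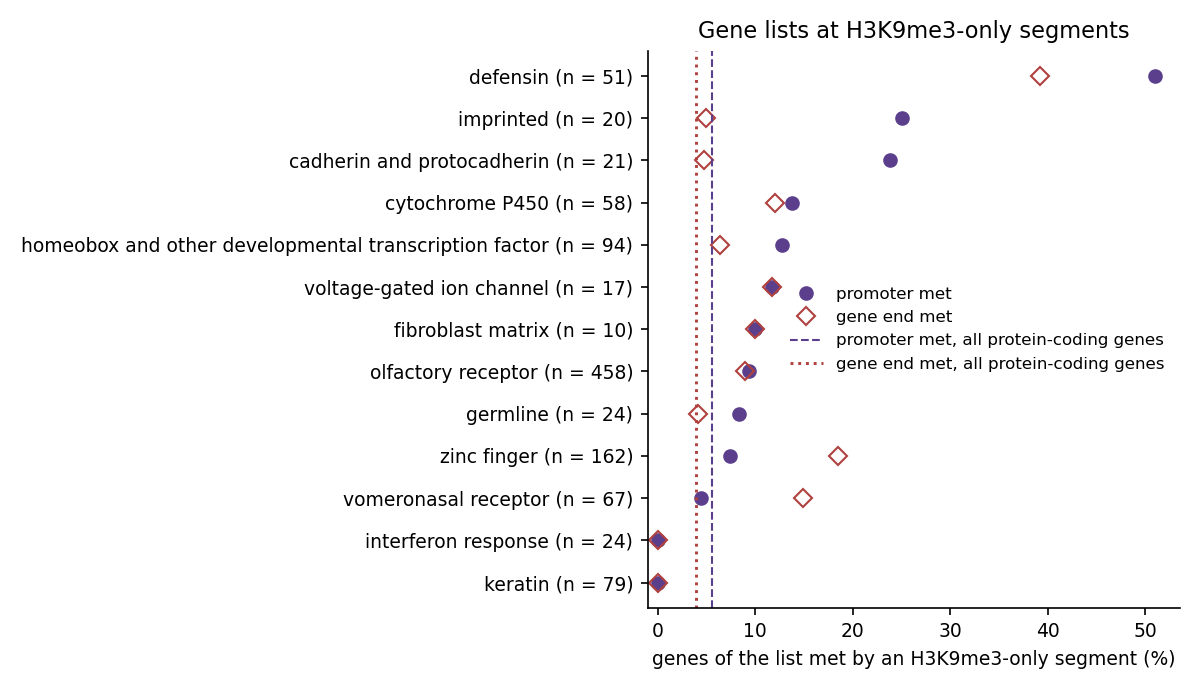
Filled circles give the percentage of each gene list with a promoter, and open diamonds with a gene end, within 1 kb of an H3K9me3-only segment. Lines mark the shares over all 9632 protein-coding genes, 5.61% for promoters and 3.91% for gene ends, and n is the number of genes of the list on the 9 chromosomes. Defensins stand apart at 51.0% of promoters, and zinc finger genes are at 7.41% of promoters (2.47% at the 5' end alone, below the background of 4.24%) but 18.5% of gene ends.

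Homeobox and other developmental transcription factor genes had 12 of 94 promoters met (12.8%), in 10 cases without another mark. Nkx3-2, Foxi1, Sox21 and Foxd4 were covered over 100% of their short bodies and Six2 over 93.8%. Nkx6-1, a gene of pancreatic and neural patterning that the study names as an example, was covered over 47.3% by 1 segment, with no H3K9me1 or H3K9me2 in its body. Pax2 carried H3K9me1 over 90.7% and a segment over only 2.75%. Cadherins and protocadherins had 5 of 21 promoters met (23.8%), namely Cdh8, Cdh9, Cdh11, Pcdh15 and Pcdh17, and Cdh11 was covered over 55.1%. Of 14 genes picked from those the study names, only Nkx6-1 had its promoter met (7.14%, against 5.61% of all protein-coding genes). These 14 are not all the genes that the study names. The germline list had 2 of 24 (8.33%), Piwil1, of the piRNA pathway (90.1% of the body), and Dazl, an RNA-binding protein of germ cells (6.22%). Voltage-gated ion channel genes had 2 of 17 (11.8%), Scn10a and Kcnc2, but 0 of 17 at the gene's 5' end.

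Imprinted genes had 5 of 20 promoters met (25%, against 8.24% of all annotated genes), namely Rasgrf1, Plagl1, Grb10, Peg13 and Mas1. Taking only the gene's 5' end, the count was 3 of 20 (15%, against 7.56% of all annotated genes). The list includes the non-coding genes Peg13 and Airn, so all annotated genes are the background here. At Rasgrf1, Grb10 and Peg13 no other mark reached the window, whereas H3K9me1 and H3K9me2 both met the promoters of Plagl1 and Mas1. Grb10, an adaptor of growth factor receptors, was covered over 11.5% by 3 segments. The neighbours Igf2r, Airn, Slc22a2 and Slc22a3 had no promoter met by a segment, though H3K9me3 reached each of these promoters. Slc22a2 and Slc22a3 carried H3K9me1 and H3K9me2 over 100% of their bodies and H3K9me3 over 98.3% and 96.6%.

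Promoter sequence from RefSeq (GRCm38.p6) is shown for 3 genes, since promoters under H3K9me3 alone ranged from CpG-rich to CpG-free. RefSeq promoters matched 98 of the 118 protein-coding genes of the lists with a promoter met, and in 17 the 250 bases before a start lay within a segment and outside annotated exons. The strand is that of the gene and CpG is in capitals. Grb10 (chr11:12037421-12037670, - strand) held 40 CpG, Nkx1-1 (chr5:33434091-33434340, - strand) held 30 and Defb8 (chr8:19447607-19447856, - strand) held 0.
Grb10: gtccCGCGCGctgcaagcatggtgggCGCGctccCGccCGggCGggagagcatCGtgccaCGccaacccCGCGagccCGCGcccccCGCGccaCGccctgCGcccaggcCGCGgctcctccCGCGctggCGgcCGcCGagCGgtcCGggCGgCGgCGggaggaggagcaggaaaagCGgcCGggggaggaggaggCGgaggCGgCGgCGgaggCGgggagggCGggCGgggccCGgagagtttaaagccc
Nkx1-1: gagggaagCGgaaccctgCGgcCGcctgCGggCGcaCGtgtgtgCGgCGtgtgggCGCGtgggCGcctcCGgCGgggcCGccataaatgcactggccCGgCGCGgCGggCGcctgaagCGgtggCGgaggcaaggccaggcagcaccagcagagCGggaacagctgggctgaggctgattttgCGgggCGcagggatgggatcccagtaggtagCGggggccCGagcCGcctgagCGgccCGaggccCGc
Defb8: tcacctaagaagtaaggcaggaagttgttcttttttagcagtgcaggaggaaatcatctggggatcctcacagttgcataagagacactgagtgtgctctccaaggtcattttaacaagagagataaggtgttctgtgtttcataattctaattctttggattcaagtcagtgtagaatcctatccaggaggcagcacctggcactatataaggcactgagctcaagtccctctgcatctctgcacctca

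Zinc finger genes (Zfp, Zscan, Zkscan and Zik), which encode DNA-binding proteins with tandem fingers, met segments at their ends more than at their starts. The gene end was met in 30 of 162 (18.5%, against 3.91% of all protein-coding genes), and the promoter in 12 of 162 (7.41%, against 5.61%). Taking only the gene's 5' end in place of any annotated start, the count was 4 of 162 (2.47%), below the 4.24% of all protein-coding genes. Coverage by segments was highest 1.5 kb before the gene end, at 19.14% of the 162 genes, and lowest 2.25 kb after the start, at 0.617%. Over all protein-coding genes it stayed between 2.64% and 3.78% within 30 kb of the end. The 30 genes met 29 segments of 1.5 to 27 kb (median 4.88 kb), and at 17 genes the segment was an island. Zfp872 on chromosome 9 was covered over 100% of its body. With only whole deposited H3K9me3 regions the count fell to 17, and with segments of at least 5.25 kb to 15.

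**Figure D5:**
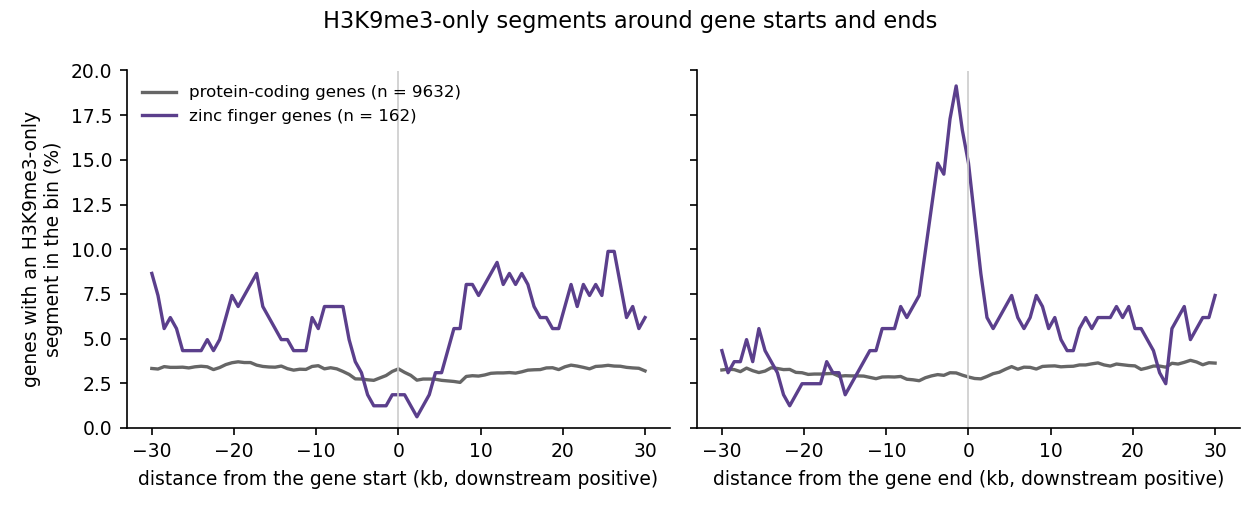
Lines give the percentage of genes with an H3K9me3-only segment in the 750 bp bin at each distance (kb) from the gene start and the gene end, for 9632 protein-coding genes (grey) and 162 zinc finger genes (purple). The zinc finger line peaks at 19.14% at 1.5 kb before the gene end and falls to 0.617% just after the gene start, while the line of all protein-coding genes stays nearly flat.

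The coding bases under these segments were repetitive in themselves. In 26 of the 30 genes a coding exon had at least 300 bases within the segment, and shifting that stretch against itself by 30 to 150 bases gave the best match at 84 bases in 25 of the 26. That shift is the length of 1 finger with its linker, and Zfp42 was the exception. The match at the best shift had a median of 65.7% identical bases over the 26 genes, against 26.5% for the median over shifts. The same shift was best in 92 of 125 zinc finger genes whose end met no segment, so the repeat belongs to the family and not to the marked genes alone. For these 125 the whole longest coding exon was used, and for the 26 only the part within the segment. The counts are therefore not measured alike. Neighbouring units of Zfp930, from chr8:69228326-69228493 (GRCm38, + strand), are shown with identical bases in capitals. They share 77 of 84 bases, and the gene had 83.3% identical bases over its coding stretch. Reads from such near-identical units and from other family members can be placed wrongly, and the part of this was not tested.
Zfp930 first unit: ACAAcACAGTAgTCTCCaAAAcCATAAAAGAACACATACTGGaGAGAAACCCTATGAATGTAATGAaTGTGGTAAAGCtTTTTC
Zfp930 second unit: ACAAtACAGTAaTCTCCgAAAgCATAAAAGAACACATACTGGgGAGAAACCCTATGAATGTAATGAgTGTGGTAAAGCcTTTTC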

How the data were processed

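ChIP-seq of H3K9me1, H3K9me2, H3K9me3 and input (2 replicates each) was done by the authors in wild-type MEFs. Per the study's methods and the submitters' processing notes, the authors aligned paired-end reads to mm10 (GRCm38) with BWA 0.7.1 and called regions with histoneHMM, a hidden Markov model over genomic bins. How input and replicates entered the calls, and the threshold, are not given in the sources used here. The deposited lists held chromosome, start and end of 42704, 29119 and 27108 regions, with no score. Read depth per sample is unknown from the lists, so no replicate error could be computed.

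Starts were read as 1-based, since all ends lay on a 750 bp grid. Chromosomes were split into runs by mark set, and H3K9me3-only runs of at least 1500 bp were kept. Sequence came from GRCm38.p6 and genes from GENCODE M21. Soft-masking, GC, CpG, 31-mers and genes were summed per chromosome and differences tested by exact sign flips over 9 chromosomes (512 flips), with Benjamini-Hochberg adjustment over 18 tests at 0.05. The segmentation, window and test code was tested on simulated data. Named genes are the 10 widest segments' genes, the 20 protein-coding genes with most covered bases, the 10 longest with promoter and at least 50% of the body covered, list members with a promoter met, and the study's examples. Only examples of the longer lists are printed. The segments and lists were chosen with earlier results of these data known. The choice of concentrated 31-mers, the zinc finger repeat unit and the comparison by width were settled only once the data had been seen. Scripts ran under Python 3.11.15 with Numba 0.67.0 and NumPy 2.4.6.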

Additional observations from a re-analysis of the deposited data

How the results depend on the processing

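No paired analysis was possible because neither replicate has a list or value of its own, and leaving out a replicate or a replicate block was not run for the same reason. Of 141 values of the 18 sequence differences under 8 alternatives, 122 kept their direction and side of the threshold, and 8 of the 18 differences did so under every one. The cause of the changes was not tested. The median over segments has no value for gene starts.

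By the median over segments, the GC difference from unmarked sequence turned to -0.251 and that of CpG to -0.357, the repeated 31-mer excess over unmarked sequence fell to 0.669 and the difference of bases within genes from H3K9me2 and H3K9me3 segments was -15.7, both without passing, while bases within genes against unmarked sequence (-67.0) and CpG against H3K9me2 and H3K9me3 segments (-0.603) and against all 3 marks (-1.66) now passed. Bases within genes against H3K9me2 and H3K9me3 segments did not pass at a minimum width of 3000 bp (-4.35) or 5.25 kb (-3.90), with H3K9me1 and H3K9me2 regions widened by 3000 bp (-3.52) or without chromosomes 10 and 15 (-3.44), nor did the difference from all 3 marks without them (-8.74). There the smallest p is 0.0156. Gene starts against H3K9me2 and H3K9me3 segments did not pass with regions widened (-1.14), with deposited regions of at least 2.25 kb (-1.98) or without chromosomes 10 and 15 (-1.61), nor those against unmarked sequence with regions widened (-3.74) or without these chromosomes (-9.40). CpG against unmarked sequence passed with regions widened (1.92), and bases within genes against unmarked sequence passed for whole regions only (-10.2).

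The number of segments was 9672 at a minimum of 3000 bp, 5230 at 5.25 kb, 8538 with regions widened and 6639 for whole regions only. The median width was 2.25 kb at a minimum of 750 bp and 7.5 kb at 5.25 kb. Whole regions only covered 41.4 Mb, or 15.6% of H3K9me3. Promoters met were 1046 (4.67%) at 5.25 kb, 1196 (5.34%) with regions widened and 870 (3.89%) for whole regions only, of which 268, 314 and 249 were of protein-coding genes. Zinc finger gene ends met were 15 at 5.25 kb and 17 for whole regions only. Taking the largest mark set within 3000 bp, 33.2% of sides met H3K9me2 with H3K9me3.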

Other observations

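Among annotated biotypes with at least 50 genes on the 9 chromosomes, variable segments of T-cell receptor genes had the highest share of promoters at an H3K9me3-only segment, with 31 of 115 (27.0%), against 8.24% of all annotated genes. Unprocessed pseudogenes had 93 of 641 (14.5%), lincRNA genes 308 of 2445 (12.6%) and processed pseudogenes 385 of 3600 (10.7%). Lowest were bidirectional promoter lncRNA genes with 1 of 109 (0.917%) and joining segments of T-cell receptor genes with 0 of 53. The T-cell receptor segments lie together in few stretches and are not independent of each other, and these shares were not tested.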
